A study of Homo sapiens with 6 samples.

Results

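Histone genes were followed in RNA-seq of IMR90 cells, a line of human lung fibroblasts of fetal origin, after depletion of the histone variant macroH2A1. Both groups had 3 biological replicates: cells that expressed a short hairpin RNA against macroH2A1, and cells whose hairpin was aimed at luciferase, which human cells do not make. Both groups carried a hairpin and were grown in medium with fetal bovine serum. The sources used here name 1 target per group and do not give the number of hairpins per target, the time after their introduction or any selection.

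The genes were chosen by name: those whose older symbols begin HIST1H, HIST2H, HIST3H or HIST4H, plus variant genes such as those of H2A.Z, H2A.X, H2A.J, H3.3, H1.10 and CENP-A, without the macroH2A genes and pseudogenes. This gave 45 of the 57659 genes counted, of which 36 were replication-dependent (6 H1, 9 H2A, 10 H2B, 7 H3 and 4 H4 genes) and 9 coded for variants. The RefSeq gene table names 80 such genes, and the other 35 are not analysed here. H1 was covered in full, whereas the sums over H3 and H4 stand for 7 of 15 and 4 of 15 genes.

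Replication-dependent histone genes lie in clusters, lack introns and are transcribed in S phase, when new DNA has to be packed into nucleosomes. Their mRNAs usually end in a stem-loop in place of a poly(A) tail. The stem-loop is bound by SLBP, and NPAT activates the clusters' transcription. Most variant genes lie alone and give polyadenylated mRNAs throughout the cell cycle. Their proteins enter chromatin outside replication, H3.3 at transcribed genes, H2A.Z at promoters and CENP-A at centromeres. The libraries were made from RNA depleted of ribosomal RNA, with no selection for poly(A), so that both kinds of mRNA were captured.

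MACROH2A1, the targeted gene, had 39.0, 43.7 and 39.9 counts per 1000000 (CPM) in the macroH2A1 knockdown libraries and 92.1, 88.0 and 84.8 CPM in the luciferase control libraries (log2 fold change -1.11, SE 0.08, edgeR adjusted p = 0.000917). The libraries held 3741087 to 5322851 gene counts in the knockdown and 3744716 to 6421605 in the control. Before library sizes were scaled, 3 counts were thus worth 0.467 to 0.802 CPM. Of 11 fibroblast markers, 10 were tested and 5 were higher in the knockdown (50%, against 3.90% of all genes tested). The 11 markers summed to 12000 to 12743 CPM in the knockdown and 7505 to 8563 CPM in the control. Epithelial markers (8 genes, none tested; SFTPB and SCGB1A1 with no count in any library) summed to 0.268 to 0.791 CPM in the knockdown and 0.457 to 0.529 CPM in the control. Endothelial markers summed to 143 to 149 CPM in the knockdown and 67.1 to 72.5 CPM in the control. Of these 6 genes, 3 were tested and 2 were higher, TEK and KDR (66.7%, against 3.90% of all genes tested). TEK made up most of the sum, while PECAM1 had no count and CDH5 at most 0.198 CPM. Blood markers (7 genes, 1 tested and not called; CD3E and HBA1 with no count) summed to 4.75 to 5.44 CPM in the knockdown and 5.72 to 7.75 CPM in the control. Their part in the histone values was not tested. In RNA of whole cultures, the number of cells in S phase and the histone mRNA per such cell cannot be told apart.

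Histone mRNA levels differed little between the groups. Of the 38 histone genes with enough counts to test, 2 passed the threshold of an edgeR adjusted p under 0.05 (5.26%): H3-3B, a gene of H3.3, rose and H1-1, a linker histone gene, fell in the macroH2A1 knockdown. Over all 13445 genes tested, 8.21% passed, 3.90% as higher and 4.31% as lower in the knockdown. The histone share thus lay near and below that of all genes. No histone gene changed by more than 2-fold, and 26 of the 38 (68.4%) had a log2 fold change within 0.25 of 0, against 54.2% of all genes tested. An unadjusted p under 0.05 was reached by 10 of the 38 (26.3%) and by 24.6% of all genes tested. The 2 groups' CPM did not overlap for 9 of the 38 (23.7%), against 30.4% of all genes tested.

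The sign of the small differences was uneven. The fitted log2 fold change was above 0 for 26 of the 38 (68.4%) and below 0 for 12, whereas 50.8% of all genes tested were above 0. Its median was 0.13 over the histone genes and 0.01 over all genes. With control replicate 3 left out, the histone median was 0.04, and under every other setting tried it lay between 0.08 and 0.18. The median SE was 0.11 for the histone genes and 0.17 for all genes tested.

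**Figure D1:**
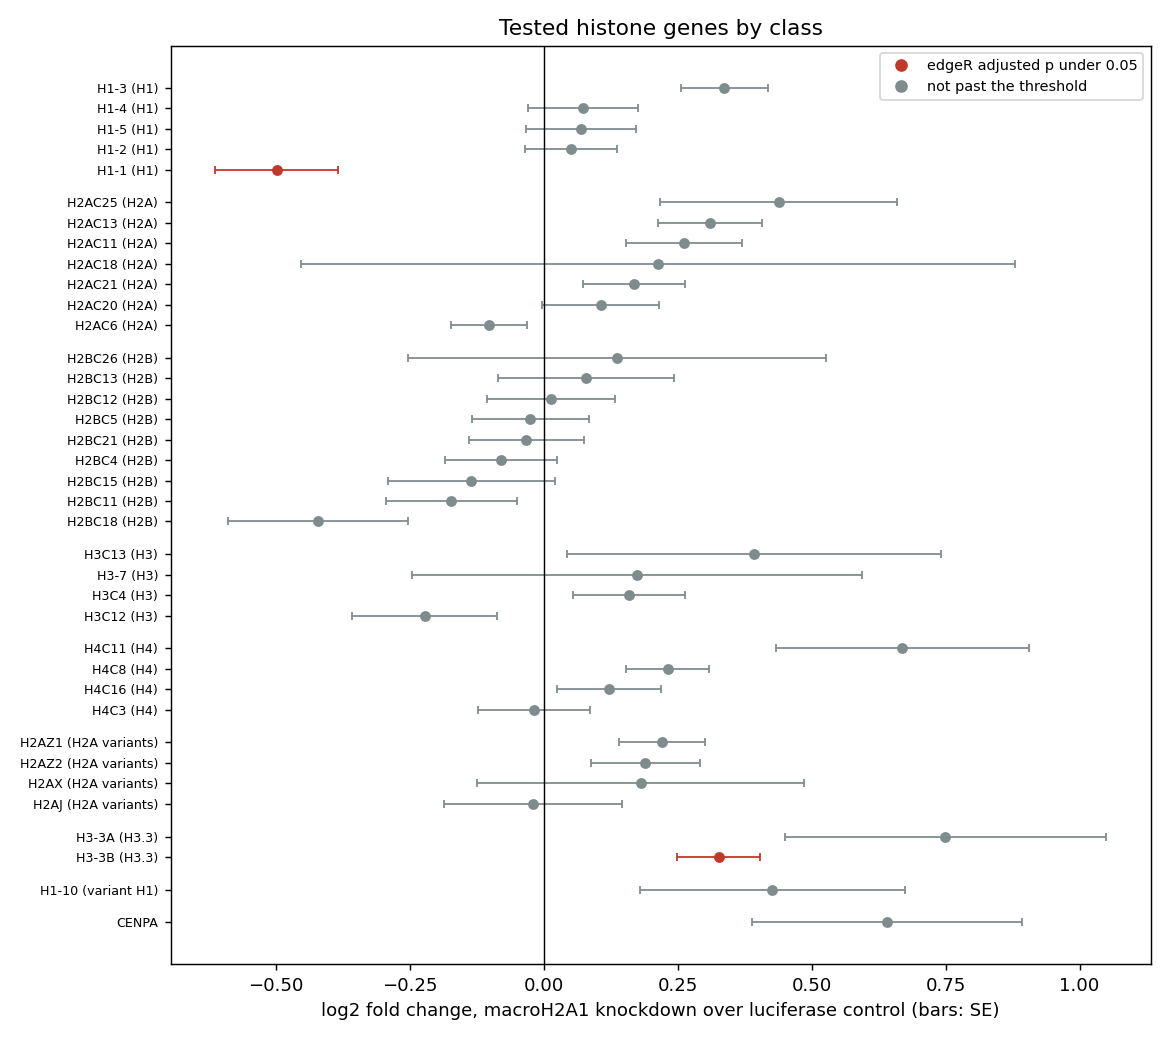
Log2 fold change (macroH2A1 knockdown over luciferase control, x axis) of 37 tested histone genes, grouped by class down the page. Points are edgeR estimates, bars are 1 SE, and the red points mark the genes with an adjusted p under 0.05, H1-1 at -0.50 and H3-3B at 0.33.

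Summed over each histone class, the replication-dependent genes had nearly the same level in both groups. All 36 together came to 2102, 2030 and 1978 CPM in the knockdown libraries and 1997, 2073 and 1766 CPM in the control libraries. The groups overlapped, and control replicate 3 was the lowest of the 6. The 9 variant genes came to 332, 322 and 309 CPM in the knockdown and 273, 268 and 259 CPM in the control (log2 ratio of the means 0.27). Here every knockdown library was above every control library. No test was run on sums, since the genes in them were chosen.

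Among the 5 replication-dependent classes, the core H2B genes had the only sum with a lower mean in the knockdown, 525 ± 26.4 CPM in the knockdown and 549 ± 66.1 CPM in the control (SD, n = 3 each). H1 averaged 610 ± 39.2 CPM in the knockdown and 572 ± 38.2 CPM in the control, and H3 118 ± 17.6 CPM in the knockdown and 111 ± 3.21 CPM in the control. In these 3 classes the groups overlapped. They did not overlap for H2A, at 462 ± 9.37 CPM in the knockdown and 428 ± 29.1 CPM in the control, nor for H4, at 321 ± 3.06 CPM in the knockdown and 285 ± 24.2 CPM in the control. These last differences were 0.11 and 0.17 on the log2 scale, and 0.06 and 0.11 without control replicate 3. The H4 sum includes H4C11 (49.1 ± 13.4 CPM in the knockdown, 30.7 ± 7.13 CPM in the control), whose counts are uncertain, as described below. Without H4C11 the H4 sums of the groups overlapped. As a share of all histone counts, H2B took 22.3% ± 1.21 in the knockdown and 24.8% ± 1.18 in the control, and H3.3 took 6.89% ± 0.240 in the knockdown and 5.80% ± 0.244 in the control. All histone genes together held 0.233% ± 0.00614 of gene counts in the knockdown and 0.220% ± 0.0139 in the control.

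**Figure D2:**
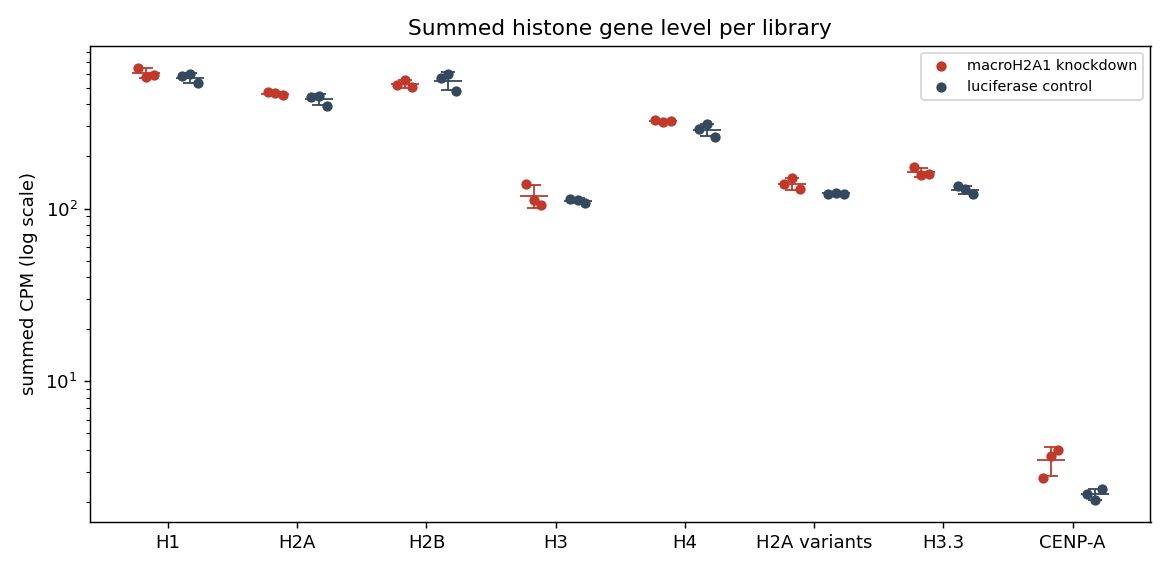
Summed level by histone class per library (CPM, log scale), replication-dependent classes on the left and variants on the right. Points are libraries, the horizontal lines are means and the bars 1 SD (n = 3 per group); H3.3 shows knockdown libraries at 156 to 173 CPM above control libraries at 121 to 134 CPM, while H1, H2B and H3 overlap.

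Linker histones bind the DNA that enters and leaves the nucleosome. H1-1 (older symbol HIST1H1A), the gene of the subtype H1.1, had 61, 57 and 48 counts in the knockdown libraries and 104, 76 and 72 counts in the control libraries. This is 12.1, 12.4 and 12.9 CPM in the knockdown and 16.5, 17.4 and 19.0 CPM in the control, with no overlap. H1-1 fell to 0.708 of its control value, a log2 fold change of -0.50 (SE 0.11) with an edgeR adjusted p of 0.0453. H1-3 (HIST1H1D), the gene of H1.3, had 110, 99.6 and 113 CPM in the knockdown and 86.7, 88.7 and 79.6 CPM in the control. All 3 knockdown libraries were above all controls, and its log2 fold change of 0.34 (SE 0.08) missed the threshold with an edgeR adjusted p of 0.0523.

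The other main linker subtypes overlapped between the groups. H1-2 (HIST1H1C) averaged 203 ± 11.8 CPM in the knockdown and 196 ± 15.0 CPM in the control (log2 fold change 0.05, SE 0.09). H1-5 (HIST1H1B) averaged 161 ± 12.0 CPM in the knockdown and 154 ± 16.8 CPM in the control (0.07, SE 0.10). H1-4 (HIST1H1E) averaged 126 ± 14.3 CPM in the knockdown and 120 ± 8.35 CPM in the control (0.07, SE 0.10). The testis gene H1-6 had 0 counts in the 3 knockdown libraries and 1 count in the 3 control libraries.

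The ratio of H1-3 to H1-1 counts within a library is given as a description, since these genes were picked for their opposite signs. It was 9.11, 8.04 and 8.75 in the knockdown and 5.27, 5.11 and 4.18 in the control. H1-2 over H1-1 was 16.4 ± 1.31 in the knockdown and 11.2 ± 1.66 in the control, with no overlap. Since H1-2 itself differed little (log2 fold change 0.05), this ratio restates the H1-1 difference and adds no separate result. Per kilobase of annotated exon, H1-2 was the most abundant linker transcript, with 316 ± 18.4 CPM per kb in the knockdown and 305 ± 23.4 in the control. H1-1 was far below it, with 19.2 ± 0.615 CPM per kb in the knockdown and 27.2 ± 2.01 in the control. As a share of all linker histone counts per length, H1-1 held 2.12% ± 0.179 in the knockdown and 3.21% ± 0.447 in the control, and H1-3 held 17.8% ± 1.06 in the knockdown and 15.0% ± 0.148 in the control. Most linker gene models in the annotation hold the coding part only, which raises their level per kb relative to models with UTRs.

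**Figure D3:**
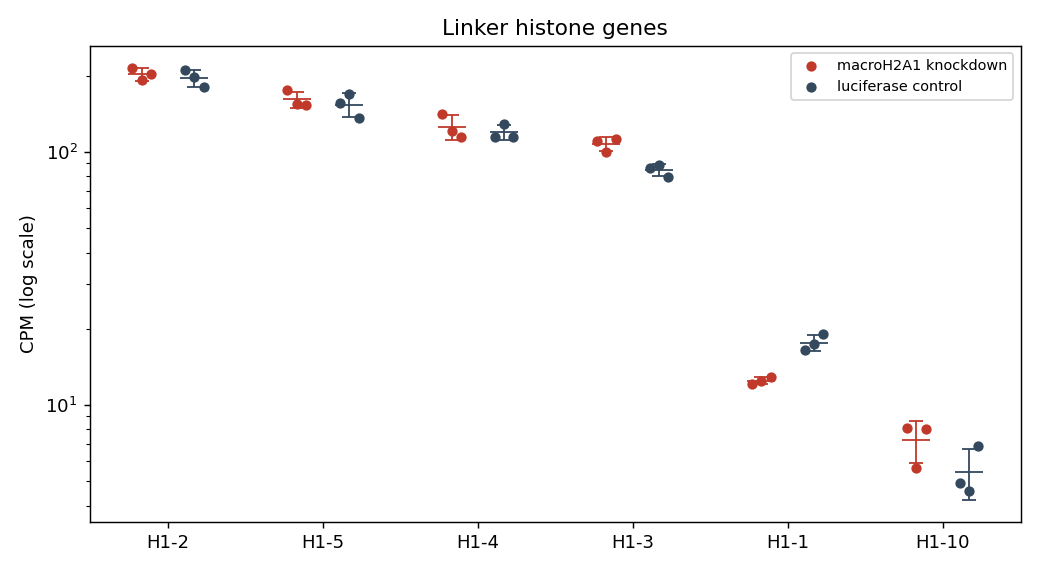
Level of 6 linker histone genes per library (CPM, log scale). Points are libraries, lines are means and bars 1 SD (n = 3 per group); the groups are apart for H1-3, higher in the knockdown, and for H1-1, lower in the knockdown at 12.1 to 12.9 CPM against 16.5 to 19.0 CPM in the control.

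The H1-1 and H1-3 promoters are shown because these genes of 1 cluster had opposite signs. Each run is the 250 bases before the RefSeq start on the minus strand of GRCh38.p14, at chr6:26017788-26018037 for H1-1 and chr6:26234988-26235237 for H1-3. Capitals mark matches on either strand to 4 motifs: the H1 box AAACACA, an element of linker histone promoters, the CCAAT box, the TATAAA form of the TATA box, and the octamer ATTTGCAT, which POU2F1 binds in H2B promoters.
H1-1: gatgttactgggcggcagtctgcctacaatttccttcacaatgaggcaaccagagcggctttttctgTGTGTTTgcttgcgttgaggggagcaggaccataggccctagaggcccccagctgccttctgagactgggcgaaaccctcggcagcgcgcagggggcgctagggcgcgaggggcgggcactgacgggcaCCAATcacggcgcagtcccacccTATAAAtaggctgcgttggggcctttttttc
H1-3: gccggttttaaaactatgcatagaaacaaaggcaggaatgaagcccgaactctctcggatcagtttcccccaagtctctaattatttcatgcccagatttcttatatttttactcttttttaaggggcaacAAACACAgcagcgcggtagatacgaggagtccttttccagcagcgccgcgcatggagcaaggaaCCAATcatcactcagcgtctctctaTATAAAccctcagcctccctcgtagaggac
The H1 box matches lie on opposite strands in these 2 windows, and that of H1-1 stands farther from the start than that of H1-3. The window of H1-2, whose log2 fold change was 0.05, holds matches on both strands. Whether strand or place bears on level was not tested. A match to the H1 box was found in all 6 replication-dependent H1 promoters, in no promoter of the other histone classes and in 4.82% of 35116 RefSeq promoters of this length. CCAAT was in all 6 H1 promoters and in 32.0% of RefSeq promoters, and TATAAA in 3 of the 6 and in 10.7%. These matches are a description of letters and do not show binding.

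H2A and H2B genes often stand back to back and share a promoter. H2AC6 (HIST1H2AC), which leads the H2A class in counts, averaged 146 ± 7.47 CPM in the knockdown and 156 ± 5.12 CPM in the control, with overlap (log2 fold change -0.10, SE 0.07). H2AC11 (HIST1H2AG) had 140, 142 and 143 CPM in the knockdown and 122.6, 131.9 and 99.9 CPM in the control. H2AC13 (HIST1H2AI) had 58.5, 55.9 and 51.4 CPM in the knockdown and 45.4, 48.5 and 39.9 CPM in the control. Both were higher in every knockdown library, at log2 fold changes of 0.26 (SE 0.11) and 0.31 (SE 0.10), and neither passed the threshold (edgeR adjusted p = 0.197 and 0.107). H2AC13 shares 62.3% of its 50-base words with HIST1H2AJ, so its counts are uncertain. H2AC20 (HIST2H2AC) averaged 79.0 ± 5.04 CPM in the knockdown and 73.4 ± 9.18 CPM in the control, with overlap. Over the 7 tested H2A genes, 6 had a positive log2 fold change (85.7%, against 50.8% of all genes tested). None passed the test, against 8.21% of all genes tested. The median, 0.21, was the value of H2AC18 (SE 0.67), all of whose 50-base words are shared with HIST2H2AA4.

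No H2B gene passed the test, against 8.21% of all genes tested. H2BC4 (HIST1H2BC) averaged 138 ± 13.2 CPM in the knockdown and 146 ± 13.9 CPM in the control, and H2BC5 (HIST1H2BD) 120 ± 12.2 CPM in the knockdown and 122 ± 12.7 CPM in the control. H2BC12 (HIST1H2BK) averaged 82.4 ± 7.91 CPM in the knockdown and 81.6 ± 10.5 CPM in the control. H2BC11 (HIST1H2BJ) averaged 76.0 ± 4.09 CPM in the knockdown and 85.7 ± 13.5 CPM in the control. The groups overlapped for each of the 9 tested H2B genes, while they did not for 30.4% of all genes tested. A positive log2 fold change was found for 3 of the 9 (33.3%, against 50.8% of all genes tested) and a negative one for 6. The values ranged from -0.42 to 0.14 with a median of -0.03. H2BC5 and H2BC12 changed sign when 1 library was left out, and the H2B sum turned to a log2 ratio of 0.01 without control replicate 2. H2BC12 shares 74.1% of its 50-base words with other annotated genes, so its counts are uncertain.

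Where an H2A and an H2B gene start within 400 bases of each other in opposite directions, their ratio within a library removes any scaling. Of 6 such pairs, 5 had both genes tested, with starts 230 to 248 bases apart. H2AC11 over H2BC11 was 1.79, 1.99 and 1.82 in the knockdown and 1.42, 1.34 and 1.39 in the control. It was the only one of the 5 ratios whose groups did not overlap. For the CPM of single genes, the groups did not overlap for 30.4% of all genes tested, and no such share was computed for ratios. H2AC13 over H2BC13 was 1.37 ± 0.205 in the knockdown and 1.18 ± 0.142 in the control, H2AC20 over H2BC21 was 2.02 ± 0.122 in the knockdown and 1.84 ± 0.170 in the control, and H2AC25 over H2BC26 was 3.02 ± 1.08 in the knockdown and 2.24 ± 0.290 in the control. H2AC6 over H2BC4 was 1.06 ± 0.102 in the knockdown and 1.08 ± 0.117 in the control. The mean ratio was thus higher in the knockdown for 4 of 5 pairs, and the groups overlapped in all but the first. The difference between pairs was not tested.

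**Figure D4:**
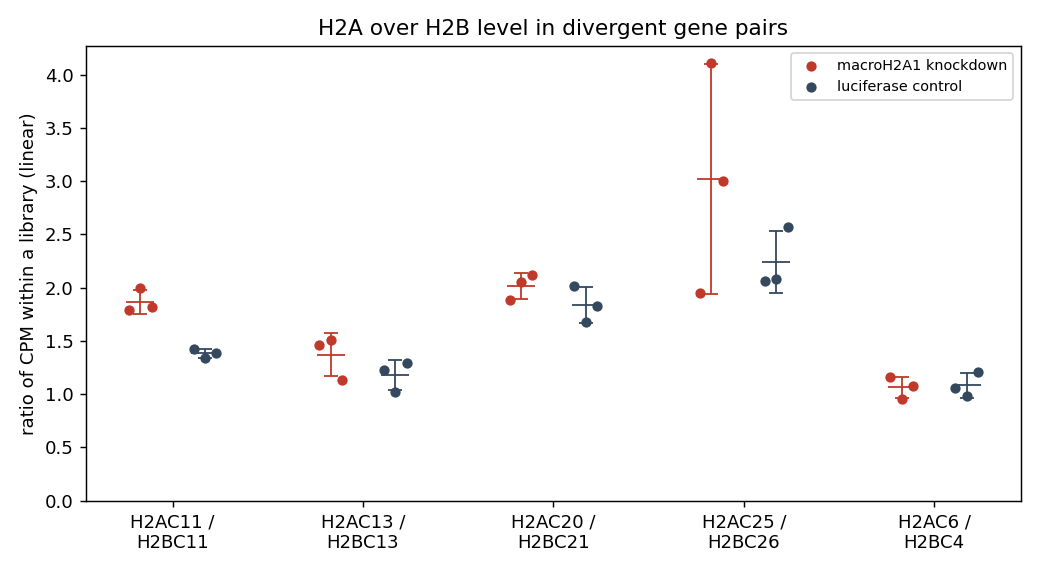
H2A count over H2B count in each library for the 5 tested divergent gene pairs (linear axis from 0). Points are libraries, lines are means and bars 1 SD (n = 3 per group); only H2AC11 over H2BC11 has all knockdown libraries, at 1.79 to 1.99, above all control libraries, at 1.34 to 1.42.

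The window between H2AC11 and H2BC11 is shown because this pair had separate ratios. It is given from the H2AC11 side, plus strand of GRCh38.p14, chr6:27132793-27133042, with the same 4 motifs in capitals; where TATAAA and its reverse complement TTTATA overlap, both are capitalised.
H2AC11: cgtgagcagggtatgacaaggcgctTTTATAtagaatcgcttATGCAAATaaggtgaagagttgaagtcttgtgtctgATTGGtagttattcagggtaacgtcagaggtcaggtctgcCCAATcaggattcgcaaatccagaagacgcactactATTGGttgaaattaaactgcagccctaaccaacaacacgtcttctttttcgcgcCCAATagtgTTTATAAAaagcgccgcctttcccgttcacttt
The octamer stands near the H2BC11 end of this window. It was found in 6 of 9 H2A windows, which for paired genes are the H2B windows read from the other side, in 6 of 10 H2B windows, in 1 of 6 H3 windows (that of H3C4, which is the same stretch as the H2AC7 window), in none of the H1 or of the 3 H4 windows, and in 1.63% of RefSeq promoters. CCAAT was in every H2A, H2B and H3 window. TATAAA was in 7 of 9 H2A, 7 of 10 H2B and 5 of 6 H3 windows.

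Among H3 genes of the clusters, H3C4 (HIST1H3D) had the most counts, with 88.6, 69.6 and 71.5 CPM in the knockdown and 69.8, 67.7 and 68.5 CPM in the control. The groups overlapped (log2 fold change 0.16, SE 0.11). H3C12 (HIST1H3J) averaged 26.0 ± 4.41 CPM in the knockdown and 30.3 ± 1.93 CPM in the control. H3C13 (HIST2H3D) averaged 5.11 ± 1.23 CPM in the knockdown and 3.81 ± 1.51 CPM in the control, and H3-7 (HIST2H3PS2) 3.43 ± 1.97 CPM in the knockdown and 3.04 ± 0.578 CPM in the control. No H3 gene of the clusters passed the test, against 8.21% of all genes tested. H3C13 and H3-7 share 80.4% and 56.1% of their 50-base words with other annotated genes, so their counts are uncertain.

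None of the 4 H4 genes passed the test, against 8.21% of all genes tested. A positive log2 fold change was found for 3 (75%, against 50.8% of all genes tested). H4C11 (HIST1H4J) had 44.3, 38.7 and 64.3 CPM in the knockdown and 32.1, 37.0 and 23.0 CPM in the control. The groups did not overlap, but the spread was wide, and the log2 fold change of 0.67 (SE 0.24) did not pass (edgeR adjusted p = 0.139). In H4C11, 81.2% of the 50-base words are shared with HIST1H4K, a near copy not analysed here. Reads with several alignments were not counted for any gene, so the counts of H4C11 are uncertain. H4C8 (HIST1H4H), which shares none, had 109, 97.9 and 95.1 CPM in the knockdown and 84.8, 83.7 and 88.5 CPM in the control (log2 fold change 0.23, SE 0.08, edgeR adjusted p = 0.124). H4C3 (HIST1H4C) averaged 125 ± 7.44 CPM in the knockdown and 126 ± 15.2 CPM in the control, and H4C16 (HIST4H4) 46.6 ± 2.54 CPM in the knockdown and 42.8 ± 4.38 CPM in the control, both with overlap.

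The 3′ stem-loops are shown because S phase histone mRNAs usually end in one. The 4-base loop is in capitals, and sequences were found in GENCODE 29 transcripts of 18 of the 36 replication-dependent genes (5 H2A, 7 H2B, 3 H3 and 3 H4) and of 1 variant, H2AX.
H2AC6: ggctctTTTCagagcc
H2BC4: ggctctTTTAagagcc
H2AC11: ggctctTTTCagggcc
H4C8: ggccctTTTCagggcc
H2AX: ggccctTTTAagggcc
The H2AC6 form was found in 11 genes, the H2BC4 form and the H4C8 form in 3 each, and the H2AC11 and H2AX forms in 1 each. In H4C11 the loop form is that of H4C8 and stands 6 bases before the end of the annotated transcript. In H2AC11 and H2AC6 the annotated transcripts run on for 1761 and up to 1128 bases beyond it. Counts of such genes can include both kinds of 3′ end, which gene counts do not separate. In the other 18 replication-dependent genes, all H1 genes among them, no such letters were found, and many of these models hold little beyond the coding part.

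Among the variants, H3.3 is the replacement form of H3. H3-3B (H3F3B) had 838, 699 and 556 counts in the knockdown libraries and 823, 545 and 444 counts in the control libraries. At 166, 152 and 149 CPM in the knockdown and 130, 125 and 117 CPM in the control, every knockdown library was above every control. H3-3B rose 1.25-fold (log2 fold change 0.33, SE 0.08, edgeR adjusted p = 0.0494). The second H3.3 gene, H3-3A (H3F3A), had 7.71, 4.35 and 8.57 CPM in the knockdown and 4.11, 4.57 and 3.44 CPM in the control. Its knockdown replicate 2 fell among the controls, and its log2 fold change of 0.75 (SE 0.30) did not pass (edgeR adjusted p = 0.183). Per kilobase of annotated exon, H3-3B stood at 25.4 ± 1.46 CPM in the knockdown and 20.2 ± 1.05 in the control, and H3-3A at 2.19 ± 0.709 in the knockdown and 1.28 ± 0.182 in the control. H3-3A shares 11.7% of its 50-base words with other genes, most with a processed copy, and H3-3B shares 3.41%. Reads with several alignments were not counted, so the level of H3-3A relative to H3-3B is uncertain. UNK, annotated on the strand opposite to H3-3B, had 1.61 to 4.75 CPM in the knockdown and 2.53 to 4.34 CPM in the control.

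Unlike the other variant promoters in the table, that of H3-3B held the octamer, so it is shown with the same capitals (minus strand of GRCh38.p14, chr17:75779780-75780029).
H3-3B: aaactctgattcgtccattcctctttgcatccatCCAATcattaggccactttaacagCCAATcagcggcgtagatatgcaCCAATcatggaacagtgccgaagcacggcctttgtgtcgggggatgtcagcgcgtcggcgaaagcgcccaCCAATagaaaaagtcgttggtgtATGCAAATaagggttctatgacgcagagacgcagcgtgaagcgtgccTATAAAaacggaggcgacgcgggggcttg

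H2A.Z has a pair of genes. H2AZ1 had 71.2, 70.0 and 67.0 CPM in the knockdown and 56.0, 58.1 and 64.8 CPM in the control, without overlap (log2 fold change 0.22, SE 0.08, edgeR adjusted p = 0.150). H2AZ2 had 46.1, 53.1 and 43.7 CPM in the knockdown and 45.2, 40.2 and 39.6 CPM in the control, with overlap (0.19, SE 0.10). H2AX, whose protein is phosphorylated at DNA breaks, averaged 14.0 ± 4.80 CPM in the knockdown and 12.3 ± 3.53 CPM in the control. H2AJ averaged 8.46 ± 1.05 CPM in the knockdown and 8.58 ± 0.468 CPM in the control. None of these 4 passed the test, against 8.21% of all genes tested.

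CENPA, the gene of the centromeric H3 variant, had 14, 17 and 15 counts in the knockdown and 14, 9 and 9 counts in the control. Its level of 2.77, 3.70 and 4.02 CPM in the knockdown and 2.21, 2.06 and 2.38 CPM in the control did not overlap. At these low counts the log2 fold change of 0.64 (SE 0.25) did not pass (edgeR adjusted p = 0.210). H1-10, a linker variant gene, averaged 7.27 ± 1.40 CPM in the knockdown and 5.45 ± 1.24 CPM in the control, with overlap (log2 fold change 0.43, SE 0.25).

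**Figure D5:**
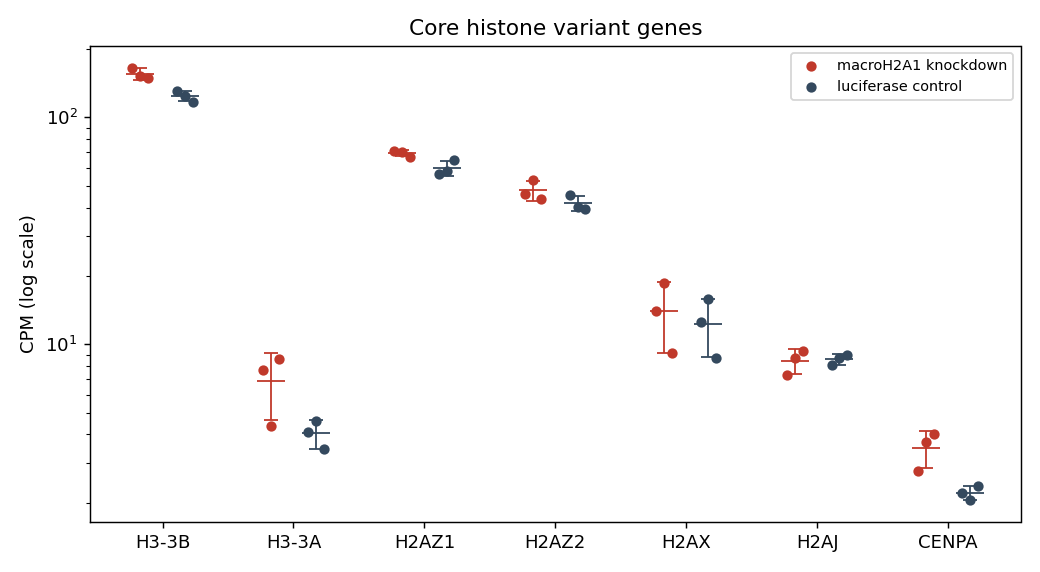
Level of the 7 core histone variant genes per library (CPM, log scale). Points are libraries, lines are means and bars 1 SD (n = 3 per group); knockdown libraries lie above control libraries for H3-3B, H2AZ1 and CENPA, of which H3-3B alone passed the test.

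The 7 histone genes not tested (H1-6, H2AC1, H2AC7, H2BC1, H3-4, H3C14 and H3C15) had 1 to 73 counts over all libraries. H1-6, H2AC1, H2BC1 and H3-4 are testis genes. H3C14 and H3C15 share all of their 50-base words with each other, and H2AC18, which was tested, shares all of its own with HIST2H2AA4. In all, 8 of the 45 genes share more than 50% of these words and 16 share none.

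Genes that make and place histone mRNAs and proteins were read in the same way. Of 22 tested genes of histone transcription and 3′ processing, none passed the edgeR test, against 8.21% of all genes tested. A positive log2 fold change was found for 7 (31.8%, against 50.8% of all genes tested), and the median was -0.12. SLBP averaged 29.6 ± 3.08 CPM in the knockdown and 31.0 ± 1.53 CPM in the control, and NPAT 21.2 ± 2.79 CPM in the knockdown and 22.7 ± 0.465 CPM in the control. These were named for their roles, whereas ZNF473 and LSM11, of the U7 snRNP-dependent cleavage, were named after their values were seen. ZNF473 had 6.13, 5.87 and 5.63 CPM in the knockdown and 8.38, 10.1 and 10.3 CPM in the control (log2 fold change -0.69, SE 0.17, edgeR adjusted p = 0.0547). LSM11 had 4.94, 4.57 and 3.75 CPM in the knockdown and 7.28, 6.17 and 8.46 CPM in the control (-0.71, SE 0.21, edgeR adjusted p = 0.0973). Both were lower in every knockdown library and neither passed.

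Of 25 tested chaperones and remodelers, 1 passed (4%, against 8.21% of all genes tested), and the median log2 fold change was -0.04. NPM1, a nucleolar chaperone that binds core histones, had 212, 214 and 210 CPM in the knockdown and 284, 281 and 252 CPM in the control, and fell (log2 fold change -0.36, SE 0.07, edgeR adjusted p = 0.0323).

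Of 26 S phase and mitosis markers, 2 rose (7.69%, against 3.90% of all genes tested) and none fell. A positive log2 fold change was found for 19 (73.1%, against 50.8% of all genes tested), and the median was 0.15. The negative values were all in S phase genes: MCM2, MCM3, MCM4, RRM2, GINS2, CDC6 and CDT1. Other S phase genes of the list, PCNA, MCM5, MCM6, MCM7, RRM1, TYMS and TK1, had positive values. The S phase genes thus went both ways, and none of them passed the test. KIF20A, a mitotic kinesin, averaged 36.2 ± 5.33 CPM in the knockdown and 24.2 ± 1.04 CPM in the control (log2 fold change 0.58, SE 0.12, edgeR adjusted p = 0.0330). BIRC5, a subunit of the chromosomal passenger complex, averaged 28.2 ± 1.31 CPM in the knockdown and 20.7 ± 2.25 CPM in the control (0.45, SE 0.10, edgeR adjusted p = 0.0473). The DNA clamp gene PCNA averaged 39.4 ± 0.736 CPM in the knockdown and 38.6 ± 3.16 CPM in the control. The list summed to 788 to 864 CPM in the knockdown and 749 to 769 CPM in the control. The part of these markers in the histone values was not tested.

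The calls sat close to the threshold. Leaving out any 1 library left no histone gene called, and H3-3B and H1-1 passed in 6 and 4 of 16 alternative settings, with adjusted p between 0.00337 and 0.152 for H3-3B and between 0.0296 and 0.197 for H1-1. DESeq2, which called 9.50% of all genes, called H3-3B, H1-3 and H4C11. When edgeR was run on the genes of the authors' deposited table only, 17.7% of them and 7 histone genes passed: H3-3B, H1-3, H1-1, H4C8, H2AC13, H2AC11 and H4C11. The authors' deposited table itself lists 41 of the 45 histone genes and gives 2 of them (4.88%) an adjusted p under 0.05, against 12.0% of all its genes. In the authors' deposited table these are H3-3B (log2 ratio 0.34, adjusted p = 0.000977) and H1-3 (0.35, adjusted p = 0.00444), while H1-1 has an adjusted p of 0.129.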

How the data were processed

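RNA-seq of 6 libraries was used, 3 per group, grouped and numbered by their titles. For each library the authors deposited a table of read counts by Ensembl gene, not normalized, made with CASAVA 1.7, GSNAP and HTSeq on hg19, per the submitters' processing notes; the sources used here give no strand setting and no annotation. Per the labels' protocols, ribosomal RNA was removed, dUTP marked the second strand, and all libraries shared 1 lane. Lines that name no gene, 86.3% to 88.1% of reads listed, were left out. Most of these reads, 64.4% to 68.8% of reads listed, had no unique alignment.

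A table of the comparison was also deposited, for which the submitters' processing notes name DESeq 1.10.1. Per the file headers it holds a mean signal (counts over size factors), a ratio of group means, its log2 and p-values.

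Here the counts of all 57659 genes were filtered (filterByExpr, minimum count 10), scaled with TMM and tested with edgeR 4.0.16 (quasi-likelihood, R 4.3.3), with Benjamini-Hochberg adjustment over all 13445 genes tested. Each SE is the log2 fold change over the square root of F. CPM uses TMM-scaled sizes, and CPM per kb divides by merged GENCODE 29 exon length. DESeq2 1.42.0 and limma 3.58.1 were alternatives, beside other scalings and filters, the authors' genes only, a replicate block and leaving out each library. The edgeR step was tested on simulated counts. Histone genes named were the variants, all called, and the 4 most abundant tested per replication-dependent class, plus those of divergent pairs; other genes were named when called or as stated. A variant gene and a gene of the S phase list are not reported here. The members and lists were chosen with earlier results of these data known.

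Symbols came from GENCODE 29, which matched 47399 identifiers. Promoters came from RefSeq (GRCh38.p14; 42 of 45 genes matched) and were searched on both strands. Each gene's 50-base words were compared with those of all other GENCODE 29 transcripts, and 15 of the 45 genes overlap another gene, 11 on the opposite strand. No library was a copy of another, since replicates differed beyond sampling noise (chi-square 25.2 to 37.7 over its degrees of freedom). Depth limits precision as 3 counts per library.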

Additional observations from a re-analysis of the deposited data

How the results depend on the processing

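The count of histone genes called, 2 in the reported fit, was 1 under RLE scaling, 1 with no scaling beyond totals, 1 with at least 20 counts in total, 1 with no filter, 7 on the genes of the authors' table only, 3 with DESeq2, 0 with the replicate block and 0 to 0 when any 1 library was left out. It was 2 without the 20 most abundant genes, and 2 with upper-quartile scaling and with limma-voom, where these were H3-3B and H1-3 and H1-1 was lost (adjusted p = 0.0529 and 0.0507). The count over all genes, 1104 in the reported fit, was 2060 on the genes of the authors' table only, 416 with the replicate block and 427 to 564 with 1 library left out. Over all genes tested, deviations of same-numbered libraries of the 2 groups correlated at -0.025, -0.018 and -0.173. Those of differently numbered libraries correlated at -0.145 to 0.173. These values do not show whether single histone genes varied together. The labels do not say that the numbers mark pairs, so the replicate block was run as an alternative only.

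Of the 29 named genes with alternatives, 20 kept their sign in all 16 settings. H4C3 was at 0.0001 with upper-quartile scaling. When 1 library was left out, the log2 fold change ranged from -0.0106 to 0.1082 for H1-2, -0.0134 to 0.1398 for H1-4, -0.0142 to 0.1443 for H1-5, -0.094 to 0.0855 for H2AJ, -0.0818 to 0.40 for H2AX, -0.0882 to 0.10 for H2BC12, -0.11 to 0.053 for H2BC5, -0.38 to 0.44 for H3-7 and -0.11 to 0.0643 for H4C3. Without the most counted gene, the log2 ratio of summed levels was 0.22 for H2A, 0.30 for H4 and 0.77 for H3.3, against 0.11, 0.17 and 0.34 with it, and for H3 it turned to -0.02, against 0.09 with it; the cause was not tested. With 1 library left out it ranged from -0.16 to 0.01 for H2B, -0.04 to 0.17 for H3, 0.06 to 0.14 for H2A, 0.11 to 0.23 for H4 and 0.04 to 0.13 for H1. Low counts limit CENPA, H3-3A, H3-7, H3C13 and H2BC26, among others.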
